A study of Homo sapiens with 6 samples.

Results

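The genes described here are the 10 SOX genes SOX3, SOX4, SOX8, SOX9, SOX11, SOX12, SOX13, SOX14, SOX15 and SOX21, taken by their symbol from a table of 61155 gene symbols. All 10 members passed the filter on low counts that left 19521 genes tested. A further 9 SOX genes in the table serve as a comparison.

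SOX proteins are transcription factors that bind DNA through an HMG box, a DNA-binding domain that sits in the minor groove and bends the helix. The family is sorted into groups by the sequence of that domain. Group B1 holds SOX2, the pluripotency and neural progenitor factor, with SOX1 and SOX3, while group B2 holds the repressors SOX14 and SOX21. Group C (SOX4, SOX11, SOX12) is known from progenitors and young neurons, group D (SOX13 and others) lacks a transactivation domain of its own, and group E (SOX8, SOX9 and SOX10) is known from neural crest, glia and cartilage. SOX15 stands alone in group G. In human embryonic stem cells (hESCs) SOX2 works with OCT4, and other SOX genes are turned on as cells leave pluripotency toward the neural and other lineages.

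Bulk RNA sequencing compared undifferentiated H7 hESCs, an established line, as wild-type (WT) cells and as S6K1-/- cells, with 3 libraries of each. Cas9 with guides to exon 9 and exon 11 of RPS6KB1, the gene of the kinase S6K1, gave the S6K1-/- cells, and those sequenced come from 1 clone, so that clone and genotype cannot be told apart. Both groups grew without feeders on Matrigel in TeSR-E8 medium. The labels also carry a time of week 5 and the word knockdown for these libraries, although they describe undifferentiated cells and a knockout. Separate cultures are not stated, so p-values measure only the spread between these libraries, which may be technical.

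The libraries held between 21896698 and 24473013 counts, and the spread between libraries of a group exceeded sampling noise (chi-square divided by its degrees of freedom, 2.23 to 4.51). RPS6KB1 itself had 831, 791 and 777 counts in WT and 464, 464 and 438 in S6K1-/- libraries, a log2 fold change of -0.75 (SE, standard error, 0.057). The pluripotency genes POU5F1, NANOG and LIN28A had log2 fold changes between -0.04 and 0.05. The 7 pluripotency markers summed to between 5380 and 5540 CPM (counts relative to the library total as scaled by TMM factors, a common unit of expression level) in WT and between 4980 and 5050 CPM in S6K1-/- libraries, and DNMT3B was the only one of them past the threshold (log2 fold change -0.35). Of the 8 neural progenitor markers, NES made up most of a sum between 437 and 455 CPM in WT and between 425 and 440 CPM in S6K1-/- libraries, and HES5, LHX2 and EMX2 had 5 counts or fewer in every library. PAX6 was the only neural progenitor marker past the threshold (log2 fold change 0.76). The 6 neural crest markers summed to between 28 and 31.2 CPM in WT and between 26.0 and 30.4 CPM in S6K1-/- libraries, with TFAP2B at 0 throughout. The 8 mesendoderm and endoderm markers summed to between 18.3 and 22.6 CPM and between 18.1 and 18.9 CPM, and the 8 amnion and trophoblast markers to between 20.5 and 22.4 CPM and between 17.7 and 19.8 CPM, with HAND1 at 0 throughout. In the mesendoderm and endoderm list and the amnion and trophoblast list single markers differed in direction, and none passed 0.001. FOXA2, an endoderm factor, had 6.09 CPM in WT and 3.32 CPM in S6K1-/- libraries (log2 fold change -0.88, edgeR adjusted p = 0.00109), and MIXL1, a primitive streak factor, 11.0 and 12.9 CPM (0.24, adjusted p = 0.0449). KRT7, an epithelial keratin on the amnion list, had 5.03 and 2.84 CPM (log2 fold change -0.82, edgeR adjusted p = 0.00103). The part that other cell types have in the SOX values was not tested, and in bulk RNA fewer cells of a type and less RNA per cell cannot be told apart.

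Because the members share the HMG box, the coding stretch of this domain was compared between them, over 79 codons (237 bases) of the GENCODE 44 transcripts on GRCh38. The stretches of SOX14 and SOX21, the group B2 genes, are shown because SOX14 was the member called and SOX21 is the other gene of its group. Capitals mark bases of SOX21 that differ from SOX14. SOX14 lies at chr3:137764800-137765036 on the plus strand, SOX21 at chr13:94711798-94712034 on the minus strand, both inside the single coding exon.
SOX14: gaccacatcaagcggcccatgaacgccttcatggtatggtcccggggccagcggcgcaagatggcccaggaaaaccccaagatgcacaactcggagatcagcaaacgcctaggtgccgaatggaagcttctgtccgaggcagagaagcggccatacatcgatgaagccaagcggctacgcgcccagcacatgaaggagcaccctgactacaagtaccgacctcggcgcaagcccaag
SOX21: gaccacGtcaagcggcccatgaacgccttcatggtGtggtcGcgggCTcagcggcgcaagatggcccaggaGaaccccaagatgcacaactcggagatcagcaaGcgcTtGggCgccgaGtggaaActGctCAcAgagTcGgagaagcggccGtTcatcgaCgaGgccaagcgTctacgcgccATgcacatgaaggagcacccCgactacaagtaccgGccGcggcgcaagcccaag
They differ at 28 of 237 bases (88.2% identity), and the longest stretch without a difference is 32 bases.

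Among the members, the 5 pairs within a group had between 84.0% and 89.9% identity in this stretch and the 40 pairs across groups between 62.0% and 87.3%, the highest of these being SOX3 and SOX21. The reads were 150 bases long. Looked up in all GENCODE 44 transcripts on both strands, no window of 150 bases of a member's main transcript matched another SOX gene exactly, and of windows of 50 bases only 11 of SOX21 matched SOX1 and SOX2. For SOX4, 21 of 4720 windows of 150 bases (0.445%) lie in an unnamed noncoding gene on the opposite strand. Exact matches to transcripts are what was searched, so reads with mismatches and unannotated copies were not covered. Because the alignment was made without splicing, the exon number also matters: 6 of the 10 members (SOX3, SOX4, SOX11, SOX12, SOX14 and SOX21) have 1 exon, whereas SOX13 has 14, SOX8 and SOX9 have 3 each and SOX15 has 2. The strand setting of the counting is not given in the sources used here, so values of genes that overlap another gene are uncertain. SOX4 shares 168 exon bases with the unnamed gene on the opposite strand, and SOX11 shares 74 exon bases with another unnamed noncoding gene on its own strand. SOX15 shares 35 exon bases with MPDU1 on the opposite strand. SOX12 and SOX13 overlap the span of noncoding genes on the opposite strand without shared exon bases, and SOX21 and SOX9 overlap the span of the antisense genes SOX21-AS1 and SOX9-AS1 without sharing exon bases with them.

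The members spanned a wide range of levels, and their order was nearly the same in both groups. In WT hESCs SOX4 had 104 ± 0.6 (SD, n = 3) RPKM (TMM-scaled CPM per kilobase of exon), which set it apart from all other members. SOX12 (19.2 ± 1.02), SOX13 (18.5 ± 0.420) and SOX11 (16.9 ± 0.249 RPKM, SD, n = 3 each) followed, with SOX12 and SOX13 overlapping between WT libraries. SOX15 had 8.63 ± 0.746, SOX3 6.07 ± 0.177, SOX21 5.38 ± 0.182, SOX8 3.78 ± 0.0558 and SOX9 1.64 ± 0.112 RPKM. SOX14 was the lowest member, at 0.335 ± 0.0757 RPKM (SD, n = 3). For scale, SOX2 had 120 ± 3.87 RPKM, so SOX4 alone came near it. In S6K1-/- hESCs SOX13 (19.6 to 20.4), SOX11 (18.9 to 20.2) and SOX12 (17.8 to 20.4 RPKM) came in another order, with overlap between neighbours, and SOX14 (1.59 ± 0.176) came above SOX9 (1.4 ± 0.0485 RPKM) with libraries that overlapped. With the length of the longest transcript in place of the union of exons, SOX13 had 33.7 RPKM in WT and came second.

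At an adjusted p under 0.001, the threshold of the study's methods, 1 of the 10 members, SOX14, was higher in S6K1-/- than in WT hESCs and 0 were lower, by the quasi-likelihood F test of edgeR. By this rule 1.42% of the genes tested were higher and 2.54% lower. At an unadjusted p under 0.05 by edgeR's test, 5 members were higher and 2 lower, where 11.8% and 14.5% of the genes tested were. DESeq2's Wald test called 2 members higher and 0 lower at its adjusted p under 0.001, where it called 1.74% and 2.59% of all genes. At an edgeR adjusted p under 0.05, SOX3, SOX11 and SOX14 were higher and no member was lower, where 5.47% and 8.31% of the genes tested were higher and lower. In 5 members every S6K1-/- library lay above every WT library, and in 3 members below, where 14% and 16.7% of all genes tested were apart in these directions. The median log2 fold change of the members was 0.09, beside -0.002 over all genes tested, with 6 members above 0 and 4 below.

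**Figure D1:**
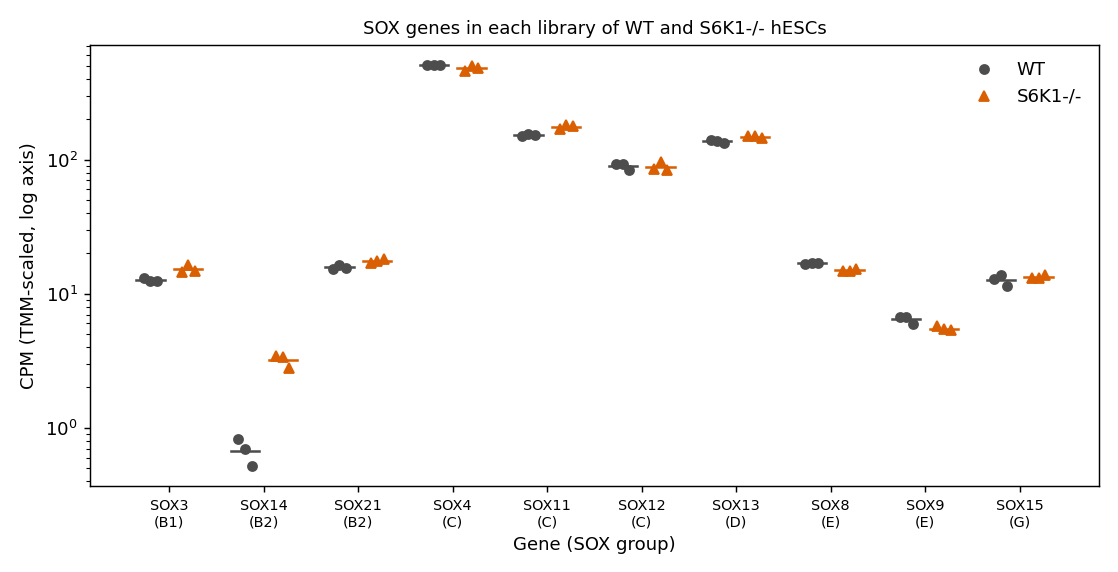
Level of each SOX gene in each library, in TMM-scaled CPM on a log axis, with WT libraries as circles, S6K1-/- libraries as triangles and a short line at each group mean (n = 3). SOX14 lies between 0.517 and 0.822 CPM in WT and between 2.80 and 3.45 CPM in S6K1-/- libraries, while the other members have log2 fold changes between -0.23 and 0.27.

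SOX14 was the member that rose. This repressor is known from interneurons of the spinal cord and from GABAergic neurons of the thalamus and midbrain, and its gene is on chromosome 3 (137764315 to 137766334, plus strand). The 3 WT libraries held 20, 17 and 12 SOX14 counts, and the S6K1-/- libraries 81, 81 and 61. Each S6K1-/- library was well above each WT library, although the level stayed low among the members. The mean rose from 0.677 ± 0.153 to 3.21 ± 0.356 CPM (SD, n = 3 each), which is a log2 fold change of 2.24 (SE 0.202, edgeR adjusted p = 1.76e-06, Benjamini-Hochberg). Over 12 alternative fits, which include leaving out each library, the log2 fold change lay between 2.09 and 2.41 and SOX14 was past the threshold in all 12. The nearest tested genes on either side with a position did not pass it. IL20RB, 753.2 kb away, had a log2 fold change of -0.36 (SE 0.149), and DZIP1L, 295.7 kb away on the other side, a log2 fold change of 0.28 (SE 0.111). The 929 tested genes of chromosome 3 had a median log2 fold change of -0.015.

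SOX21, the other repressor of group B2, counteracts the B1 factors in neural progenitors. It had 375, 402 and 359 counts in WT and 398, 418 and 392 in S6K1-/- libraries. After scaling these were 15.4, 16.4 and 15.5 CPM against 17.0, 17.5 and 18.0 CPM, so the groups did not overlap, but the gap was small beside that of SOX14. Its log2 fold change was 0.15 (SE 0.0651) with an edgeR adjusted p of 0.154. The log2 ratio of SOX14 to SOX21 counts within a library, which does not depend on library scaling and was taken from counts plus 0.5, went from -4.52 ± 0.33 in WT to -2.44 ± 0.20 in S6K1-/- hESCs (SD, n = 3 each).

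Such ratios were compared for 6 pairs by a two-sided exact permutation test, whose smallest p for 3 against 3 libraries is 0.10. For SOX14 and SOX21 the libraries were apart and p was 0.10, or 0.15 after Benjamini-Hochberg adjustment over the pairs.

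**Figure D2:**
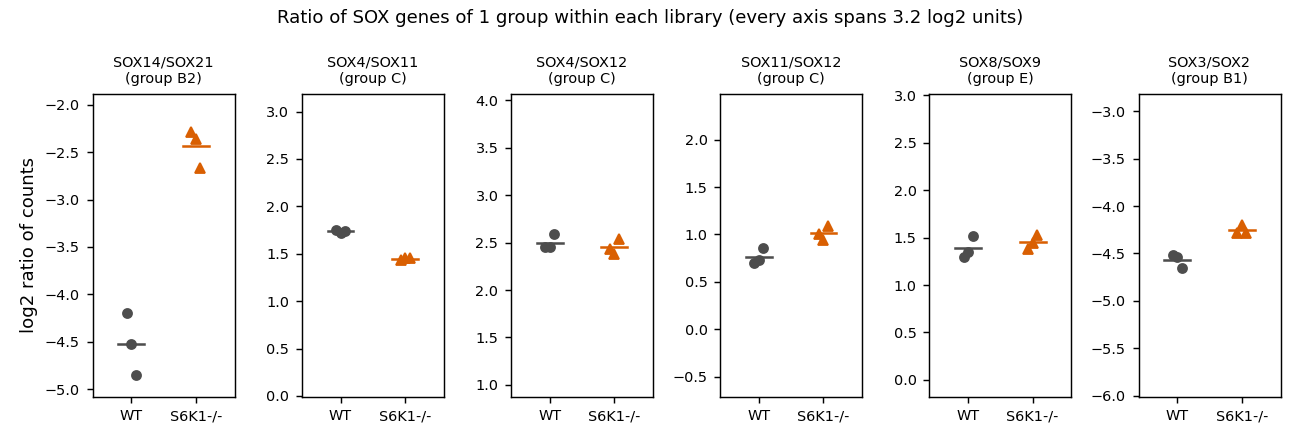
Log2 ratio of the counts of pairs of SOX genes of the same group within each library, WT as circles and S6K1-/- as triangles with lines at the means (n = 3), every vertical axis spanning the same distance. SOX14/SOX21 differs by 2.08, SOX4/SOX11 by -0.30, SOX3/SOX2 by 0.31 and SOX11/SOX12 by 0.24 without overlap, while SOX4/SOX12 and SOX8/SOX9 overlap between the groups.

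SOX3, the group B1 gene on the X chromosome (140502985 to 140505069, minus strand), is a close relative of SOX2 that is active in neural progenitors. Its counts were 318, 308 and 287 in WT and 339, 395 and 323 in S6K1-/- libraries, or 13.1, 12.5 and 12.4 against 14.4, 16.5 and 14.8 CPM. All S6K1-/- libraries lay above all WT libraries. The log2 fold change was 0.27 (SE 0.074), and the edgeR adjusted p of 0.0233 missed 0.001. It ran from 0.0165 to 0.108 over the alternatives and was under 0.05 in 3 of the 6 fits that left out a library. SOX2 itself had 301 ± 9.72 and 292 ± 10.9 CPM (SD, n = 3 each), with a log2 fold change of -0.04. The log2 ratio of SOX3 to SOX2 was -4.57 ± 0.072 in WT and -4.26 ± 0.052 in S6K1-/- hESCs (SD, n = 3 each), apart between the groups with an exact permutation p of 0.10 (two-sided, 0.15 adjusted over the pairs). LINC00632, the nearest tested gene on the higher-coordinate side at 204.5 kb from SOX3, had a log2 fold change of -0.54 (SE 0.0998, edgeR adjusted p = 0.00175), the smallest adjusted p among the members' nearest tested neighbours, none of which passed 0.001.

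In group C SOX11 lay higher, SOX4 slightly lower and SOX12 level between the groups, and none passed 0.001. SOX11, a factor of neuronal progenitors and young neurons on chromosome 2 (5692384 to 5701385, plus strand), had 3648, 3791 and 3552 counts in WT and 4000, 4361 and 3851 in S6K1-/- libraries. These are 150, 154 and 153 CPM against 170, 182 and 177 CPM, without overlap. The log2 fold change of 0.21 (SE 0.0397, edgeR adjusted p = 0.00185) fell just short of the threshold, and DESeq2's Wald test put it past (adjusted p = 5.04e-05). In the 6 fits without a library it was between 0.00178 and 0.0116 by edgeR's test.

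SOX4, the most abundant member and like SOX11 an activator in progenitors, had 12283, 12533 and 11832 counts in WT and 10749, 11894 and 10549 in S6K1-/- libraries. Scaled, these were 505, 510 and 509 CPM against 458, 497 and 485 CPM, so the libraries were apart but with more spread in the S6K1-/- group. The log2 fold change was -0.08 (SE 0.0414, edgeR adjusted p = 0.225). SOX12, the weakest activator of the group, had 92.1, 93.0 and 84.3 CPM in WT and 85.2, 95.2 and 83.1 CPM in S6K1-/- libraries, which overlap (log2 fold change -0.03, SE 0.0545).

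Within a library, SOX4 counts exceeded SOX11 counts by a log2 ratio of 1.75, 1.72 and 1.74 in WT and 1.43, 1.45 and 1.45 in S6K1-/- hESCs. The difference of -0.30 is large beside the SDs of 0.013 and 0.015, and its exact permutation p was the smallest possible, 0.10 (two-sided, 0.15 adjusted over the pairs). The ratio of SOX11 to SOX12 went from 0.76 ± 0.083 to 1.01 ± 0.078 (SD, n = 3 each, log2 scale, same exact p), and that of SOX4 to SOX12 from 2.50 ± 0.081 to 2.45 ± 0.083 with overlapping libraries (exact permutation p = 0.50).

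SOX13, the group D member on chromosome 1 (204073115 to 204127743, plus strand), is known from T cells and the nervous system. Its levels were 140, 137 and 134 CPM in WT and 149, 151 and 146 CPM in S6K1-/- libraries, narrow in both groups and not overlapping. The log2 fold change was 0.12 (SE 0.0386) with an edgeR adjusted p of 0.0607. SOX15, the group G gene on chromosome 17 (7588178 to 7590094, minus strand), which can bind DNA together with OCT4, had 12.8, 13.7 and 11.5 CPM in WT and 13.0, 13.0 and 13.7 CPM in S6K1-/- libraries. The groups overlapped, with a log2 fold change of 0.06 (SE 0.0787).

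The group E members had lower values in S6K1-/- hESCs in each library, and neither passed the test. SOX9, the master factor of cartilage and a neural crest and gonad factor, lies on chromosome 17 (72121020 to 72126416, plus strand). It had 164, 164 and 138 counts in WT and 134, 131 and 116 in S6K1-/- libraries, or 6.74, 6.67 and 5.94 against 5.71, 5.47 and 5.33 CPM. The groups came close to each other without overlap. The fitted log2 fold change of SOX9 was -0.23 (SE 0.101, edgeR adjusted p = 0.161). SOX8, which acts with SOX9 and SOX10 in glia and gonad, lies on chromosome 16 (981770 to 986979, plus strand) and had 16.6, 17.0 and 17.0 CPM in WT and 14.9, 14.9 and 15.4 CPM in S6K1-/- libraries. Its log2 fold change was -0.17 (SE 0.0637, edgeR adjusted p = 0.102). LMF1, 0.451 kb from SOX8, had 7.64 and 7.67 CPM. The log2 ratio of SOX8 to SOX9 was 1.39 ± 0.12 and 1.45 ± 0.075 (SD, n = 3 each) with overlapping libraries (exact permutation p = 0.40).

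**Figure D3:**
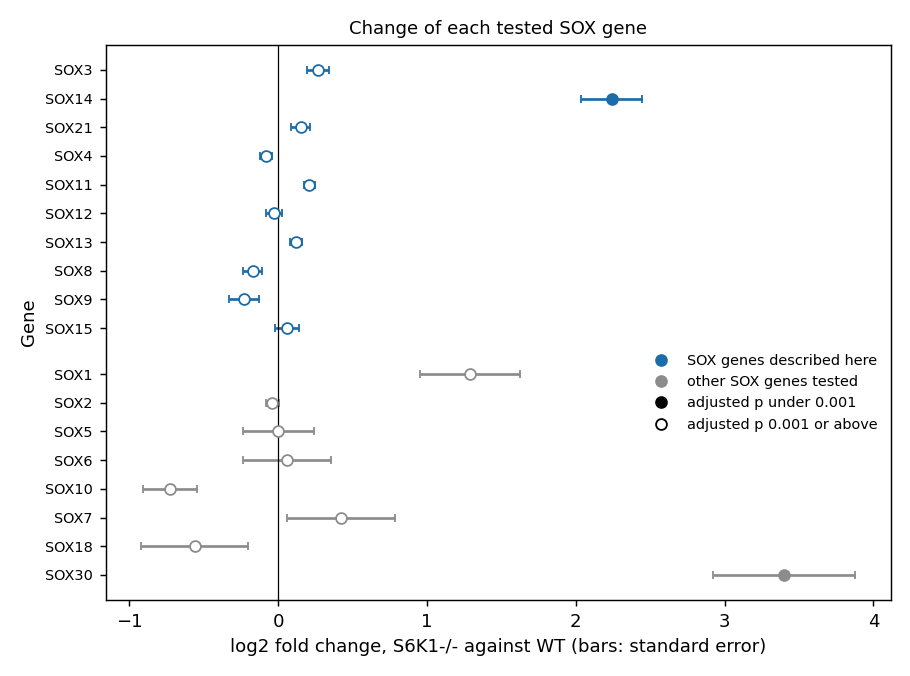
Log2 fold change of each tested SOX gene in S6K1-/- against WT hESCs with its standard error from edgeR (3 libraries per group), the 10 members in blue above the 8 other SOX genes in grey, filled where the adjusted p is under 0.001. SOX14 at 2.24 and SOX30 at 3.4 are filled, and the other members lie between -0.23 and 0.27.

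The rest of the family, apart from SOX2, had low counts. Of the 9 other SOX genes, 8 were tested, 1 was higher at an adjusted p under 0.001 and none was lower (by edgeR's test 2 higher and 1 lower at an unadjusted p under 0.05, and by DESeq2 1 and 0 at the threshold), with a median log2 fold change of 0.03. Among all genes tested the shares higher and lower were 1.42% and 2.54% (unadjusted p 11.8% and 14.5%, DESeq2 1.74% and 2.59%). SOX30, the group H gene of spermatid development, had 2, 1 and 2 counts in WT and 22, 13 and 19 in S6K1-/- libraries. From the summed counts its level was 11.3-fold higher, with an exact 95% interval from 4.54 to 36.1 that covers counting error only. The edgeR adjusted p was 1.50e-04, but leaving out 1 library raised it to 0.00121 (WT replicate 3), 0.00138 (S6K1-/- replicate 1) and 0.00146 (S6K1-/- replicate 3). SOX30 passed the filter on low counts only through its S6K1-/- libraries, as did SOX1, so that a gene like these had to differ to be tested. The count of 1 higher gene in this list rests on SOX30, and that of 2 at the unadjusted p on SOX30 and SOX1.

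SOX10, the third group E gene and a neural crest and myelin factor, also had its lower values in S6K1-/- hESCs, with 59, 64 and 60 counts in WT and 28, 45 and 33 in S6K1-/- libraries, a log2 fold change of -0.73 (SE 0.182, edgeR adjusted p = 0.0143). It shares 260 exon bases with POLR2F on the opposite strand, so its value is uncertain. SOX1, the early neuroectoderm factor of group B1, had 6, 7 and 6 counts in WT and 16, 17 and 12 in S6K1-/- libraries, with a log2 fold change of 1.29 (SE 0.334, edgeR adjusted p = 0.0174). Because SOX1 passed the filter on low counts only through its S6K1-/- libraries, a higher value there was a condition of its being tested. SOX1, SOX3 and PAX6 rank among the genes known from neural progenitors, and beside them FABP7, another gene of these cells, had 1.9 CPM in WT and 0.789 CPM in S6K1-/- libraries (log2 fold change -1.27, edgeR adjusted p = 0.00192), while NES was level. The part of such cells in these values was not tested. SOX17, the endoderm factor, had 1 count in all 6 libraries together. SOX5, SOX6, SOX7 and SOX18 had means between 0.385 and 1.67 CPM with overlapping libraries, and SOX7 shares 1268 exon bases with PINX1.

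Of 5 noncoding genes named after a SOX gene, 3 were tested and none passed 0.001 in either direction (by edgeR's test 1 higher and 0 lower at an unadjusted p under 0.05, by DESeq2 none), with a median log2 fold change of -0.18. All genes tested had 1.42% higher and 2.54% lower at 0.001 (unadjusted p 11.8% and 14.5%, DESeq2 1.74% and 2.59%). SOX21-AS1, whose span holds SOX21 on the opposite strand, had 227, 215 and 233 counts in WT and 266, 297 and 297 in S6K1-/- libraries. Both genes of this locus had every S6K1-/- library above every WT library, as had 14% of all genes tested. SOX21-AS1 had a log2 fold change of 0.41 (SE 0.0893, edgeR adjusted p = 0.00576), and SOX21 missed 0.05 (edgeR adjusted p = 0.154). LINC00391, the nearest tested gene on the lower-coordinate side at 1.132 kb from SOX21, had a log2 fold change of -0.06 (SE 0.26). SOX2-OT, around SOX2, had 4.52 ± 0.574 and 3.99 ± 0.322 CPM, and SOX9-AS1 0.568 ± 0.0443 and 0.433 ± 0.0613 CPM (SD, n = 3 each). SOX1-OT had no count in WT and 3, 7 and 0 counts in S6K1-/- libraries, so that 1 S6K1-/- library was also at 0, and it was not tested.

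**Figure D4:**
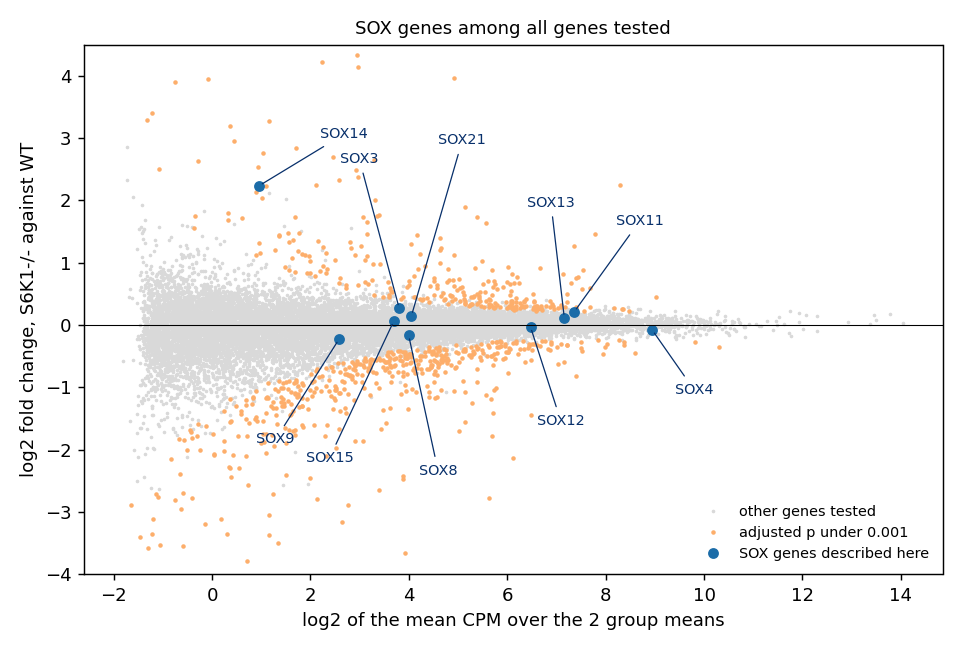
Log2 fold change against the log2 of the mean CPM for all 19521 genes tested in S6K1-/- against WT hESCs (3 libraries each), genes past an adjusted p of 0.001 in orange, the SOX genes described here in blue, with 32 genes outside the axis. SOX14 lies among the called genes at a low level, and the other members lie within or at the edge of the grey band.

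Factors that share DNA sites or act with SOX proteins were looked at next. Of 12 SOX partner factors 10 were tested, 1 was higher and none lower past 0.001 (5 and 0 at an unadjusted p under 0.05 by edgeR's test, 3 and 0 by DESeq2's adjusted p), with a median log2 fold change of 0.09. Over all genes tested these rules called 1.42% and 2.54% at 0.001, 11.8% and 14.5% at the unadjusted p, and 1.74% and 2.59% with DESeq2. PAX6, which acts with SOX2 in lens and neural progenitors, rose from 99, 108 and 115 to 161, 181 and 181 counts, a log2 fold change of 0.76 (SE 0.113, edgeR adjusted p = 2.69e-04). Leaving out 1 library raised its adjusted p to 0.00186 (WT replicate 1), 0.00149 (S6K1-/- replicate 2) and 0.00228 (S6K1-/- replicate 3). GLI3, a mediator of Hedgehog signalling, had 42.9 ± 3.05 CPM in WT and 52.7 ± 1.95 CPM in S6K1-/- hESCs (SD, n = 3 each) and an adjusted p of 0.00175.

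Of 14 genes known from interneurons that express SOX14, 8 were tested, 1 was higher and none lower (1 and 0 at an unadjusted p under 0.05 by edgeR's test, 1 and 0 by DESeq2), and 7 of the 8 had a log2 fold change below 0, with a median of -0.21. Here too the shares of all genes tested were 1.42% higher and 2.54% lower (unadjusted p 11.8% and 14.5%, DESeq2 1.74% and 2.59%). The gene that rose was GATA2, a factor of GABAergic and blood lineages, from 84, 76 and 75 to 140, 141 and 131 counts. Its log2 fold change was 0.87 (SE 0.111, edgeR adjusted p = 6.39e-05), and it was past the threshold in all 12 alternatives. NKX6-2 had 6.03 ± 0.599 CPM in WT and 5.13 ± 0.414 CPM in S6K1-/- hESCs (SD, n = 3 each), with overlapping libraries.

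Among 22 cartilage and neural crest genes tied to group E, 14 were tested, 2 were lower and none higher (4 lower and 2 higher at an unadjusted p under 0.05 by edgeR's test, 2 and 1 by DESeq2's adjusted p), with a median log2 fold change of -0.01. Shares of all genes tested were 2.54% lower and 1.42% higher (unadjusted p 14.5% and 11.8%, DESeq2 2.59% and 1.74%). COL9A1, a cartilage collagen gene that SOX9 activates, fell from 9.32 ± 0.430 to 6.11 ± 0.417 CPM (SD, n = 3 each), which is a log2 fold change of -0.61 (SE 0.0922, edgeR adjusted p = 3.03e-04). With a library left out COL9A1 was past the threshold in 0 of 6 fits, with adjusted p-values up to 0.00243. The other tested collagen genes of the list did not fall with it. COL9A3 was higher without overlap (log2 fold change 0.21, edgeR adjusted p = 0.00293), and COL2A1 (0.04) and COL9A2 (-0.06) overlapped between the groups.

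Of 8 genes tied to group C in young neurons 5 were tested, 2 were lower and none higher (3 lower and 1 higher at an unadjusted p under 0.05 by edgeR's test, 2 and 0 by DESeq2), with a median log2 fold change of -0.27. By the same rules 2.54% of all genes tested were lower and 1.42% higher (unadjusted p 14.5% and 11.8%, DESeq2 2.59% and 1.74%). STMN2, a microtubule regulator of growing axons, fell from 1184, 1209 and 1204 to 367, 364 and 330 counts, a log2 fold change of -1.70 (SE 0.0562, edgeR adjusted p = 1.41e-11). DCX, a microtubule protein of migrating neurons, fell from 272, 257 and 273 to 177, 194 and 159 counts, a log2 fold change of -0.54 (SE 0.0857, edgeR adjusted p = 4.91e-04), but was past the threshold in only 1 of 6 fits without a library, with adjusted p-values up to 0.00521. Of the remaining tested genes, GAP43 was lower (-0.27, edgeR adjusted p = 0.0246). TEAD2 (0.13, adjusted p = 0.101) and TUBB3 (0.26, adjusted p = 0.605) lay above 0 with overlapping libraries.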

How the data were processed

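Per the labels and methods, the authors trimmed paired reads of stranded poly(A) libraries with Trim Galore 0.6.5, aligned them to GRCh38 with Bowtie2 2.4.5 without splicing, and counted reads per gene symbol with featureCounts. The deposited values are raw whole-number counts for 6 libraries, not normalized. A table of the authors' own DESeq2 comparison (means, fold changes, errors, p-values) was not used.

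Genes were kept with edgeR's filterByExpr, TMM-scaled and fitted by genotype alone with the quasi-likelihood F test of edgeR 4.0.16 in R 4.3.3, with Benjamini-Hochberg adjustment over 19521 genes at 0.001. Standard errors come from the log2 fold change and the F statistic. The steps were tested on simulated data. Ratios used counts plus 0.5 and an exact permutation test (scipy 1.17.1). Exon lengths, overlaps, neighbours and sequences are from GENCODE 44, in which 36797 of 61155 symbols were found once and 15619 genes tested had a position.

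The members, gene lists and tests were chosen with earlier results of these data known. The genes named are all SOX genes, the list genes past the threshold or with the smallest p, and nearest tested neighbours. Some genes and a sequence chosen by these rules are not reported here. Alternatives were other normalizations, DESeq2's Wald test (DESeq2 1.42.0), other filters, a replicate block, each library left out, an adjusted p under 0.05, a pseudocount of 5 and another gene length.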

Additional observations from a re-analysis of the deposited data

How the results depend on the processing

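SOX14 was past 0.001 under all 12 alternative fits (adjusted p = 8.40e-06 with the replicate block). Among the members, 2 were higher with DESeq2's Wald test and without the filter on low counts, SOX14 and in both cases SOX11 (log2 fold change 0.22 and 0.21), and 3 at an adjusted p under 0.05. SOX12, which overlapped between the groups, ran from -0.09 to 0.01 with a library left out. SOX5 had 0.0 with DESeq2's size factors and with DESeq2 and ran from -0.36 to 0.17 with a library left out, and SOX6 from -0.14 to 0.22, all without a call. With the length of the longest transcript, WT levels were 4.07 RPKM for SOX8, 33.7 for SOX13 and 9.58 for SOX15, since that length is shorter.

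Over all genes, 591 were higher and 982 lower without the filter, 1067 and 1622 at an adjusted p under 0.05, 339 and 505 with DESeq2, and between 175 and 235 higher and 313 and 445 lower with a library left out. Of the other SOX genes, 0 were higher where at least 10 counts were required in every library, since SOX30 was then not tested, between 0 and 1 with a library left out, and 2 higher and 1 lower at 0.05. Higher partner factors numbered 3 with DESeq2, without the filter and at 0.05, and between 0 and 2 with a library left out. In the cartilage and neural crest list, 1 gene was higher with DESeq2, without the filter and at 0.05, 4 were lower at 0.05 and between 0 and 1 with a library left out. In the group C list between 1 and 2 were lower with a library left out, and 1 noncoding gene was higher without the filter and at 0.05. The cause of these shifts was not tested.

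With the replicate number of the labels as a block, 1 cartilage and neural crest gene and 1 group C gene were lower, since COL9A1 (adjusted p = 0.00119) and DCX (0.00192) missed the threshold, and 241 genes were higher and 423 lower in all. The libraries share only a number: deviations of same-numbered libraries from their group means correlated at 0.018, 0.00174 and 0.0316, and not every library correlated best with its own number.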
